A study of Mus musculus with 22 samples.

Results

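The genes described here are 10 genes of DNA replication licensing and its control: Mcm2, Mcm3, Mcm4, Mcm5, Mcm6, Mcm7, Cdc6, Cdt1, Gmnn and Pcna. They were taken by symbol from the 22367 protein-coding genes that GENCODE vM1 places on chromosomes 1 to 19, X and Y of the mouse genome (mm9), and all 10 symbols were found. RNA polymerase II (PolII) was mapped by ChIP-seq in G1E-ER4, a subline of the GATA1-null mouse proerythroblast line G1E, and each of 18 libraries has its own list of peaks. In every library, control libraries included, both copies of CTCF carry an AID-mCherry tag, cells express the plant receptor OsTiR from a retrovirus together with GFP, and cells were arrested with 200 ng/ml nocodazole. Auxin, which triggers degradation of the tagged CTCF, was added during the arrest and kept after release. Cells were sorted by mCherry and by DNA content, and prometaphase cells also by a mitotic phosphoprotein mark. The control and auxin groups hold 2 libraries each in prometaphase (0 min after release), 2 each in early-G1 (60 min) and 2 each in late-G1 (240 min), and 3 each in mid-G1 (120 min). The late-G1 control libraries are numbered 2 and 3. The labels name a late-G1 auxin 1, where the paper's list of peak files names a late-G1 control 1 instead. The labels were followed, and which name holds was not tested. Nothing in the labels says whether libraries of a group came from separate cultures, so p-values measure the spread between these libraries only.

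Licensing prepares chromosomes for a single round of copying. After mitosis the origin recognition complex, CDC6 and CDT1 load the ring-shaped MCM helicase, built from the products of Mcm2 to Mcm7, onto DNA. Geminin, the product of Gmnn, binds CDT1 and blocks further loading once S phase has begun, and PCNA, the sliding clamp of the fork, directs the destruction of CDT1 during copying. Many of these genes are textbook targets of E2F factors, which act at the passage from G1 to S phase. Where PolII lies on them in the hours between mitosis and that passage is what the peak lists record.

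Each gene was read in a window from 1 kb before to 1 kb after the annotated gene. A gene was called detected in a library when at least 1 peak overlapped its window. The best rank of a gene is the rank of its strongest peak among all peaks of that library by fold enrichment over background, so rank 1 is the strongest peak of the library and a larger number is a weaker one. A rank is relative to the other peaks of the same library, and a peak is an average over the cells sorted, so fewer cells with PolII on a gene and less PolII per cell cannot be told apart. The covered share is the percent of the window under peaks.

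The libraries differed most between mitosis and G1. The 4 prometaphase lists held 2414 to 3918 peaks, and the 14 post-mitotic lists 50594 to 117125. The mid-G1 control 1 list was the shortest of the post-mitotic lists, the next holding 74154 peaks. Background depth, recovered from the fold enrichments and p-values of the lists, was 4.54 reads per kb in mid-G1 control 1, the lowest of the 18 libraries, and 13.3 in late-G1 control 3, the highest. Prometaphase libraries lay at 4.93 to 5.95 reads per kb. All 11 erythroid marker genes looked for were detected in all 14 post-mitotic libraries, and of 15 genes of other lineages 12 were detected in none, Lck and Csf1r in all 14, and Pax5 in 1.

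Several of the windows are shared with neighbours. Mcm7 (chr5:138605811-138613650, minus strand) starts 420 bp from Ap4m1, which runs the other way, overlaps the 3' end of Cops6, and holds the microRNA genes Mir25, Mir93 and Mir106b in its body. Mcm4 (chr16:15623990-15637493, minus strand) starts 466 bp from Prkdc. Pcna (chr2:132074898-132079050, minus strand) starts 43 bp from the non-coding AV099323, and the start of 5730494N06Rik, on the same strand, lies 5507 bp downstream of the Pcna start. Cdt1 (chr8:125091915-125097028, plus strand) lies inside the long read-through model Gm20388 and next to Aprt. Mcm2 (chr6:88833469-88848774, minus strand), Mcm3 (chr1:20793055-20810359, minus strand), Mcm5 (chr8:77633427-77652338, plus strand), Mcm6 (chr1:130228168-130256233, minus strand), Cdc6 (chr11:98769115-98785254, plus strand) and Gmnn (chr13:24843714-24853792, minus strand) have no annotated neighbour in their windows.

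The bases before the start of Mcm5 and Mcm6 are shown, over which both genes had a PolII peak in every prometaphase library. The bases before the RefSeq starts of Mcm7 also lay under peaks in every prometaphase library and are not printed here. Both printed stretches are the 250 bases before the RefSeq start (RefSeq promoter table, located in the NCBIM37 genome by an exact match), written 5′ to 3′ along the gene, with E2F words in capitals. Mcm5 is at chr8:77633158-77633407 on the plus strand and Mcm6 at chr1:130256283-130256532 on the minus strand.
Mcm5: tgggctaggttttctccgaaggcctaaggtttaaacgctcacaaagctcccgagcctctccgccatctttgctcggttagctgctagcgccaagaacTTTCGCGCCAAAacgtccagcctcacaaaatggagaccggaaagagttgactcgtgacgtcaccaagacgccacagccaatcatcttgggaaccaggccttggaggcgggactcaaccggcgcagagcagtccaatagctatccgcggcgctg
Mcm6: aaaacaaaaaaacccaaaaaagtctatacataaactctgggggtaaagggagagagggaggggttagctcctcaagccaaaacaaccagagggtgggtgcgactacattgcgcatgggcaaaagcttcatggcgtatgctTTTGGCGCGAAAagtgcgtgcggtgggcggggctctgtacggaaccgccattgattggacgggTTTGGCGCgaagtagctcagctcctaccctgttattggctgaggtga

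The words searched on both strands were TTTCCCGC, TTTCGCGC, TTTGCCGC and TTTGGCGC. In Mcm5 the capitals hold 2 words on opposite strands that overlap, beginning at −153 and −149 from the start. In Mcm6 they hold 2 such words, beginning at −110 and −106, and a further word at −47. Of 32851 RefSeq promoter windows, each from 250 bases before to 50 bases after a start, 2.26% held an E2F word. Of the 10 genes 8 had an entry (Mcm4 and Gmnn had none), and 6 of these 8 held a word: Mcm3, Mcm5, Mcm6, Mcm7, Cdc6 and Cdt1. The CCAAT box was in the windows of 6 of the 8 and in 37.4% of all windows, and TTTGAA was in that of Mcm2 and in 17.9% of all windows. CTCF core words were searched as AGGGGGC, as the variant AGGTGGC, as the further variant AGATGGC, and lastly in the form AGAGGGC. They were in the windows of Mcm5 and Mcm6 and in 27.6% of all windows. A match is a run of letters and not a measured binding site.

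In prometaphase, PolII peaks lay over a part of the helicase genes. Mcm5, Mcm6 and Mcm7 were detected in all 4 prometaphase libraries, as were 4.6% of all protein-coding genes and 10.4% of the 9829 genes detected in all 14 post-mitotic libraries. The best peak of Mcm7 ranked 281 and 306 in control and 682 and 392 in auxin, with fold enrichments of 15.3, 14.3, 9.35 and 11.3. That of Mcm5 ranked 426 and 301 in control and 465 and 350 in auxin, with fold enrichments of 12.4, 14.8, 11.5 and 12.0. In auxin 1 the best Mcm7 peak lay past the end of the gene, by Cops6, and in the other 3 libraries inside the gene. The summits lay 447 to 8830 bp from the Mcm7 start, and in 3 of the 4 libraries the best peak touched a neighbouring gene. Ap4m1 overlaps Mcm7 and starts 420 bp from the Mcm7 start. PolII of Mcm7 and of Ap4m1 cannot be told apart in a peak there. Mcm6 was more uneven, with ranks of 423 and 1025 in control and 589 and 2341 in auxin. All 4 libraries placed Mcm5 and Mcm7 in the stronger part of their lists, and auxin 2 placed Mcm6 near the end of its 2414 peaks. The Mcm5 summits lay at −202 to −122 bp from the gene start, inside the bases printed above in all 4 libraries. Those of Mcm6 lay at −264 to 87 bp from the start, in 2 of 4 libraries inside the printed bases.

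Mcm3 was detected in 3 of the 4 prometaphase libraries, at ranks 3268 and 2662 in control and 1411 in auxin 1. Its summits lay at the start in control 2 and auxin 1 and in an intron in control 1. Cdc6 and Cdt1 had a peak in control 1 only, at ranks 2122 and 2711, that of Cdt1 past the end of the gene, and Gmnn in auxin 1 only, at rank 2443. Mcm2, Mcm4 and Pcna had none in any of the 4 libraries, as had 83.9% of all genes. The 4 libraries thus detected 6, 4, 5 and 3 of the 10 genes, beside 7.06 to 11.2% of all protein-coding genes. Peaks in prometaphase covered little of the windows. Mcm7 had 12.6 to 19.9% covered, Mcm5 2.18 to 3.76% and Mcm6 1.64 to 2.46%.

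After release, all 10 genes were detected in all 14 libraries, beside 45.3 to 51.5% of protein-coding genes per library. Mcm6 had a mean of 22870 ± 5108 covered bases over the 14 post-mitotic libraries and 612 ± 129 over the 4 prometaphase libraries (SD, n = 14 and 4). Pcna had 4114 ± 486 and 0. In an exact two-sided permutation test of covered bases with labels exchanged within control and within auxin, all 10 genes had more after mitosis, as had 46.1% of the 22367 genes tested (Benjamini-Hochberg adjusted p = 0.00214 for 9 genes and 0.00411 for Mcm4). The smallest p that the arrangements of these libraries can give is 0.000772. The lists also differ in length and depth between these stages, as given above, and their part in the result was not tested.

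**Figure D1:**
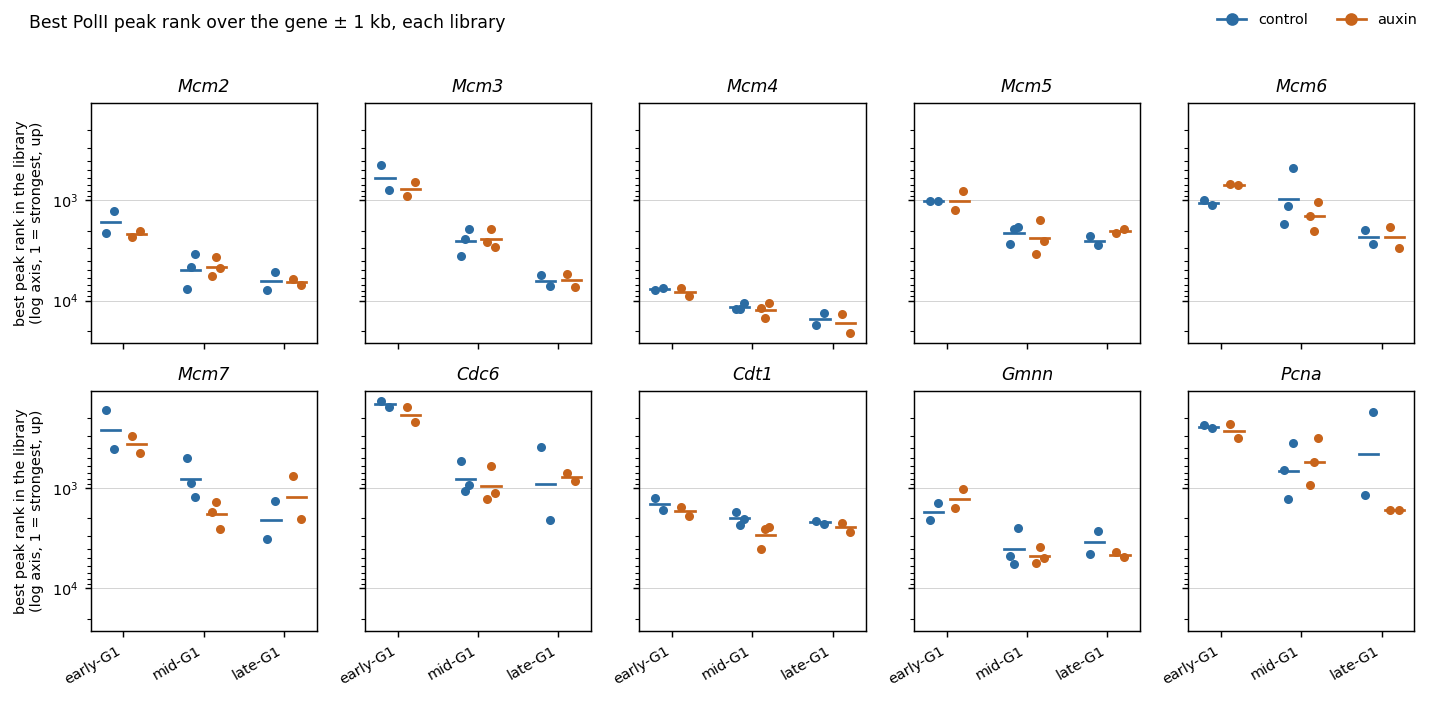
Best PolII peak rank of each gene in each post-mitotic library, on an inverted log axis (rank 1 would be at the top), by stage. Points are libraries, blue for control and orange for auxin, and short lines are geometric means. Points sit highest in early-G1 in most panels, with Mcm3 lower at each step and Cdt1 moving least, from 1239 to 1901 in early-G1 to 2133 to 2745 in late-G1.

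Of the 3 post-mitotic stages, early-G1 had the strongest geometric mean rank in all 10 genes. From early-G1 to late-G1 the best rank weakened in 9 of the 10 genes, all but Cdt1, at adjusted p under 0.05 (limma on −log2 of the best rank, Benjamini-Hochberg over the 9829 genes detected in all 14 post-mitotic libraries). The share of all tested genes called weaker was 7.09%. The count of 9 includes Mcm7, whose best summit lay past the end of the gene in 11 of 14 libraries. At the Mcm7 coding starts the change was −1.84 (adjusted p = 0.00042). Also counted is Pcna, whose best peak lay at the start of the neighbour 5730494N06Rik in all 14 libraries. For peaks that reached within 500 bp of the annotated Pcna coding starts the change was −0.35 and was not called (adjusted p = 0.624). The median difference over the 10 genes was −1.59 on the −log2 rank scale and over all genes −0.00. All genes together gave 615 calls for a stronger and 697 for a weaker rank, and 165 and 512 with the rank taken as a share of the list. With the rank turned to a normal score, 3 of the 10 genes were called weaker, Mcm3, Mcm7 and Cdc6. On this scale a difference below 0 is a larger rank number and so a weaker peak.

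The helicase genes moved by different amounts. Mcm3 ranked 447 and 785 in early-G1 control and 913 and 650 in early-G1 auxin. By mid-G1 its ranks were 1909 to 3609, and in late-G1 they were 5550 and 7218 in control and 5379 and 7266 in auxin. The stages did not overlap, and Mcm3 was the gene of the 10 with the greatest change, −3.22 ± 0.30 (SE) from early-G1 to late-G1, a 9.31-fold larger rank number (adjusted p = 1.73e-05). Its fold enrichment went from 40.6 to 50.6 in early-G1 to 14.2 to 22.4 in late-G1. It was also the one gene called between mid-G1 and late-G1 (−1.33 ± 0.27, adjusted p = 0.00725), a step at which 3.56% of all genes were called weaker. That call was lost with the rank as a share of the list or as a normal score.

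Mcm2 ranked 2133, 1264, 2338 and 2023 in the 4 early-G1 libraries (control 1 and 2, then auxin 1 and 2) and 7815, 5180, 6147 and 6947 in the late-G1 libraries. All early-G1 values were stronger than all late-G1 values, and the change was −1.77 ± 0.30 (adjusted p = 0.0016). Mcm7 ranked 165, 410, 299 and 447 in early-G1 and 3187, 1340, 756 and 2011 in late-G1. The early-G1 and late-G1 values did not overlap, and both late-G1 groups were widely spread. Its change was −2.37 ± 0.43 (adjusted p = 0.00204).

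Mcm4 had weaker peaks than the other helicase genes throughout, at ranks 7478 to 9000 in early-G1 and 13439 to 20848 in late-G1 (−1.02 ± 0.25, adjusted p = 0.0137). Mcm5 ranked 805 to 1251 in early-G1 and 1924 to 2787 in late-G1 (−1.17 ± 0.29, adjusted p = 0.0147), and Mcm6 694 to 1124 and 1836 to 2990 (−1.43 ± 0.37, adjusted p = 0.0177). In all 3 genes the early-G1 and late-G1 values did not overlap. The calls of these genes were close to the threshold. That of Mcm4 was lost without early-G1 control 2 (adjusted p = 0.0505), early-G1 auxin 1 (0.0595) or late-G1 auxin 2 (0.0638). That of Mcm5 was lost without early-G1 control 1 (−1.16), early-G1 auxin 2 (−1.01) or late-G1 auxin 1 (−1.13), and that of Mcm6 without early-G1 control 1 (−1.39), early-G1 auxin 1 (−1.43), early-G1 auxin 2 (−1.44) or late-G1 auxin 2 (−1.26).

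Of the helicase loaders, Cdc6 moved and Cdt1 did not pass the test. Cdc6, the ATPase that recruits the helicase to the origin recognition complex, ranked 136 and 154 in early-G1 control and 154 and 220 in early-G1 auxin. Its late-G1 ranks were 387 and 2088 in control and 702 and 853 in auxin. The groups did not overlap, though the 2 late-G1 control libraries lay far apart, and the change was −2.35 ± 0.44 (adjusted p = 0.00256). Cdt1, the partner that carries the helicase to origins, ranked 1239 to 1901 in early-G1 and 2133 to 2745 in late-G1. The values again did not overlap, but the difference was −0.57 ± 0.26 (adjusted p = 0.163).

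Gmnn, which encodes the inhibitor of CDT1, ranked 1026 to 2056 in early-G1 and 2643 to 4900 in late-G1 (−1.43 ± 0.32, adjusted p = 0.00771). The best peak in the Pcna window ranked 235, 252, 226 and 316 in early-G1 and 1156, 175, 1633 and 1647 in late-G1. Late-G1 control 3, at 175, was stronger than every early-G1 library, so the groups overlapped (−1.75 ± 0.52, adjusted p = 0.0364). The Pcna call was lost without any 1 of 7 libraries, with differences from −1.87 to −1.07: early-G1 control 1 or 2, early-G1 auxin 1 or 2, late-G1 control 2, or late-G1 auxin 1 or 2. In 9 of the 10 genes, all but Pcna, all 4 early-G1 libraries ranked the gene higher than all 4 late-G1 libraries did, as was so for 10.5% of the genes tested.

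In 8 genes, all but Mcm6 and Cdt1, every early-G1 library ranked the gene higher than every mid-G1 library did, as was so for 8.13% of the genes tested. The count of 8 includes Pcna, through the peak at the start of 5730494N06Rik, with 316 the weakest early-G1 and 318 the strongest mid-G1 rank. Within 500 bp of the Pcna coding starts the stages overlapped. Between early-G1 and mid-G1 the best rank weakened in Mcm2, Mcm3, Mcm5, Mcm7, Cdc6 and Gmnn, 6 of the 10 genes, beside 8.15% of all genes called weaker. Cdc6 went to 536 to 1273 in mid-G1 (−2.43 ± 0.40, adjusted p = 0.00112) and Gmnn to 2480 to 5732 (−1.57 ± 0.29, adjusted p = 0.00233). Mcm2 changed by −1.34 ± 0.28 (adjusted p = 0.00499) and Mcm7 by −1.98 ± 0.39 (adjusted p = 0.00358). Mcm6 kept mid-G1 ranks of 473 to 2036, which overlapped early-G1 (−0.46 ± 0.33, adjusted p = 0.408), and its step from mid-G1 to late-G1 was −0.97 ± 0.33 (adjusted p = 0.088, and 0.033 without mid-G1 control 1). The calls of the first step were made with and without mid-G1 control 1, the shallow library, in the same 6 genes. That of Mcm5 (−1.16 ± 0.26, adjusted p = 0.00901) was lost without early-G1 auxin 2 (adjusted p = 0.0592), and Pcna was called in addition (−1.24) without late-G1 control 2 or 3.

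**Figure D2:**
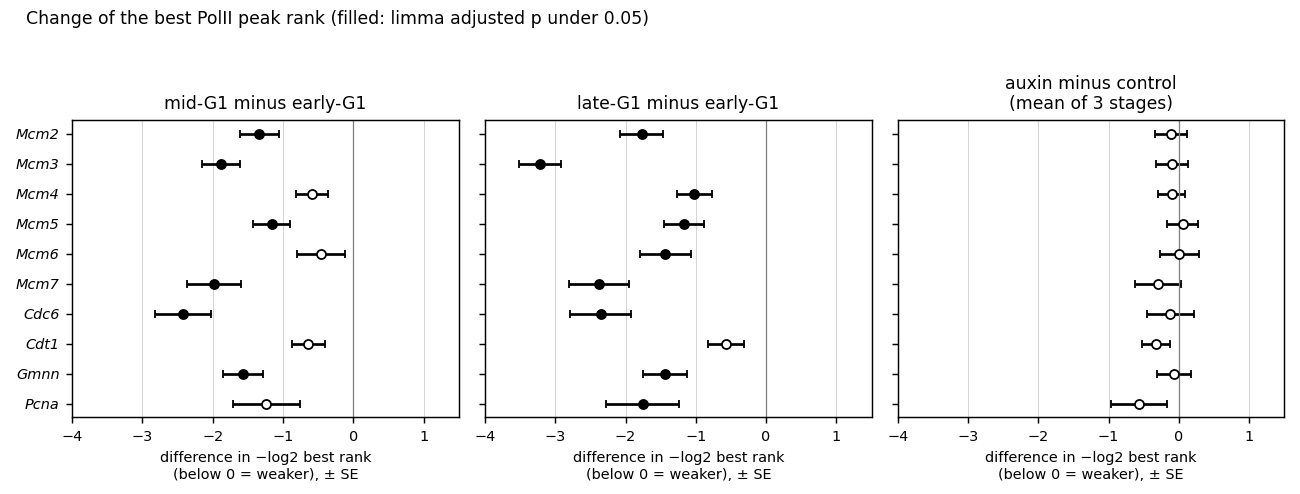
Differences in −log2 best rank (x axis, below 0 weaker) for the 10 genes, with standard errors from limma. Filled points passed adjusted p under 0.05, which holds for 6 genes from early-G1 to mid-G1, 9 from early-G1 to late-G1 and none for auxin against control. The Pcna values come from a peak at the start of the neighbour 5730494N06Rik, and those of Mcm7 mostly from peaks with summits past the end of the gene.

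The summits of the best peaks showed where the ranks came from. A peak that reached into a window could have its summit outside it, as in some libraries at Mcm2, Mcm3, Mcm4 and Cdt1. Cdc6 summits lay 58 to 118 bp after the gene start in all 14 post-mitotic libraries, in an untranslated exon, and Gmnn summits within 201 bp of the start. Mcm2, Mcm3, Mcm5 and Mcm6 summits lay within 500 bp of the start in 12, 13, 13 and 14 of the 14 libraries. The remaining Mcm2 summits, at 16663 and 16833 bp, and the remaining Mcm3 summit, at 19564 bp, lay past the windows. Read at their coding starts, Mcm2 ranked 5180 to 8584 and Mcm3 5550 to 7491 in late-G1. Cdt1 summits lay within 500 bp of the start in 11. In 3 of the 6 mid-G1 libraries the Cdt1 summits lay past the end of the gene, up to 8774 bp from its start. The start of Aprt is 8892 bp from that of Cdt1. Read at its coding start, Cdt1 ranked 1735 to 6360 in mid-G1, beside best ranks of 1735 to 4051. Mcm5 was covered over its whole window in early-G1 by 1 peak of 28237 to 28415 bp, whose summit in early-G1 control 2 was 19805 bp from the start. Mcm4 differed, with no best summit within 500 bp of its start in any library and 12 of 14 beyond 5 kb, in introns, a coding exon or past the 3' end. Read at its coding starts, Mcm4 ranked 9183 to 13848 in early-G1 and 31948 to 78145 in late-G1. It had no peak there in mid-G1 control 3 and mid-G1 auxin 3.

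For Mcm7 and Pcna the strongest peak was not at the start of the gene. In 11 of 14 post-mitotic libraries, all 4 of early-G1 among them, the best Mcm7 summit lay 8250 to 8824 bp from the start, past the end of the gene, in peaks that also reached Cops6 and the microRNA genes. Read within 500 bp of annotated coding starts alone, Mcm7 ranked 635 to 1192 in early-G1, 1715 to 2545 in mid-G1 and 2643 to 3187 in late-G1. These 3 ranges did not overlap, and the change from early-G1 to late-G1 was −1.84 ± 0.26 (adjusted p = 0.00042). The start of Ap4m1, which runs the other way, is close to this peak.

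The best peak of the Pcna window had its summit 5406 to 5548 bp from the Pcna start in all 14 libraries, outside the window, at the start of 5730494N06Rik. At the Pcna starts themselves the ranks were 4560 to 9976 in early-G1, 6614 to 17681 in mid-G1 and 4881 to 19035 in late-G1, with all stages overlapping. There the change was −0.35 ± 0.37 (adjusted p = 0.624), and with the summit required inside the window it was −0.19 (adjusted p = 0.814). The change called for the Pcna window was thus measured on a peak at the neighbour's start.

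**Figure D3:**
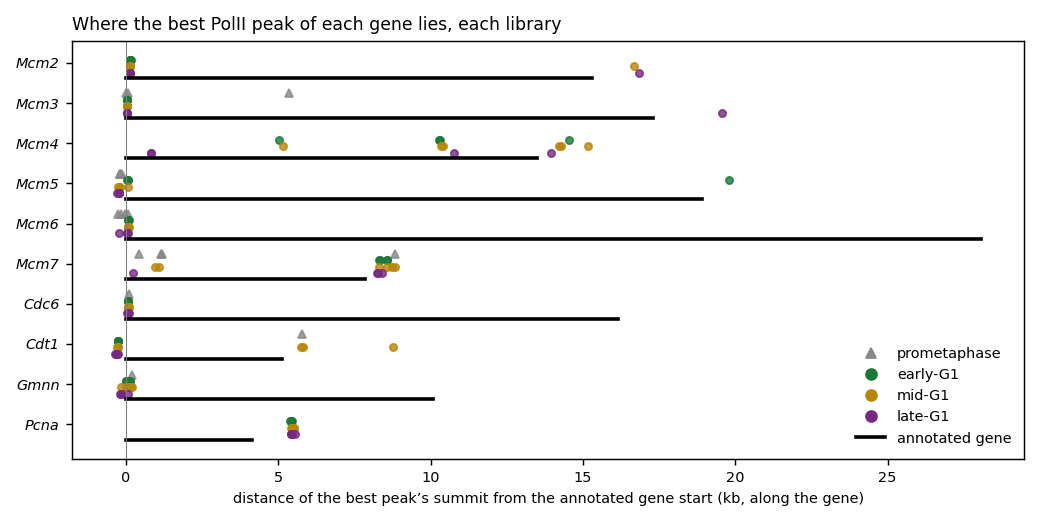
Distance of the best peak's summit from the annotated gene start (x axis, kb along the gene) in each library in which the gene was detected. Grey triangles are prometaphase, and green, ochre and purple points are early-, mid- and late-G1, with black bars showing gene length. Most summits sit at the start, those of Mcm7 mostly near 8 kb and those of Pcna beyond 5 kb, past the end of each gene.

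The covered share gave a wider and less exact view of the same genes. In early-G1, 7 of the 10 windows were filled to at least 87.1% in all 4 libraries. Mcm5 was at 100% in all 4 libraries, Cdc6 at 99.0 to 100%, Mcm3 at 95.2 to 97.5% and Cdt1 at 96.3 to 100%. Mcm4 was at 75.1 to 86.0%, Gmnn at 57.3 to 88.2% and Pcna at 64.3 to 76.7%. By late-G1 Mcm4 had 23.5 and 57.4% in control and 25.7 and 21.7% in auxin. Mcm2 went from 87.1 to 92.0% in early-G1 to 42.1 and 89.5% in late-G1 control and 49.7 and 39.4% in late-G1 auxin. All 10 differences from early-G1 to late-G1 were below 0 (median −0.35 on the log2 scale, −0.09 over all genes), but 0 of 10 passed adjusted p under 0.05 in limma, and 1.87% of all genes were called smaller. At an unadjusted p under 0.05 1 of the 10 passed, Mcm4 (−1.45 ± 0.50, adjusted p = 0.144), as did 1247 of the 9829 genes for a smaller share.

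Depth moved with the covered share. Late-G1 control 3, the deepest library, had the highest late-G1 value in 8 of the 10 genes, and mid-G1 control 1, the shallowest, had the lowest post-mitotic value in 9. Without mid-G1 control 1, Mcm2 (−0.78, adjusted p = 0.0394), Mcm3 (−0.39, 0.0247), Mcm4 (−1.45, 0.00719) and Mcm6 (−0.51, 0.0164) were called smaller in late-G1, beside 1402 of all genes. With log2 depth as a covariate 6 were called, Mcm2, Mcm3, Mcm4, Mcm5, Mcm6 and Gmnn, beside 2063 of all genes called smaller.

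**Figure D4:**
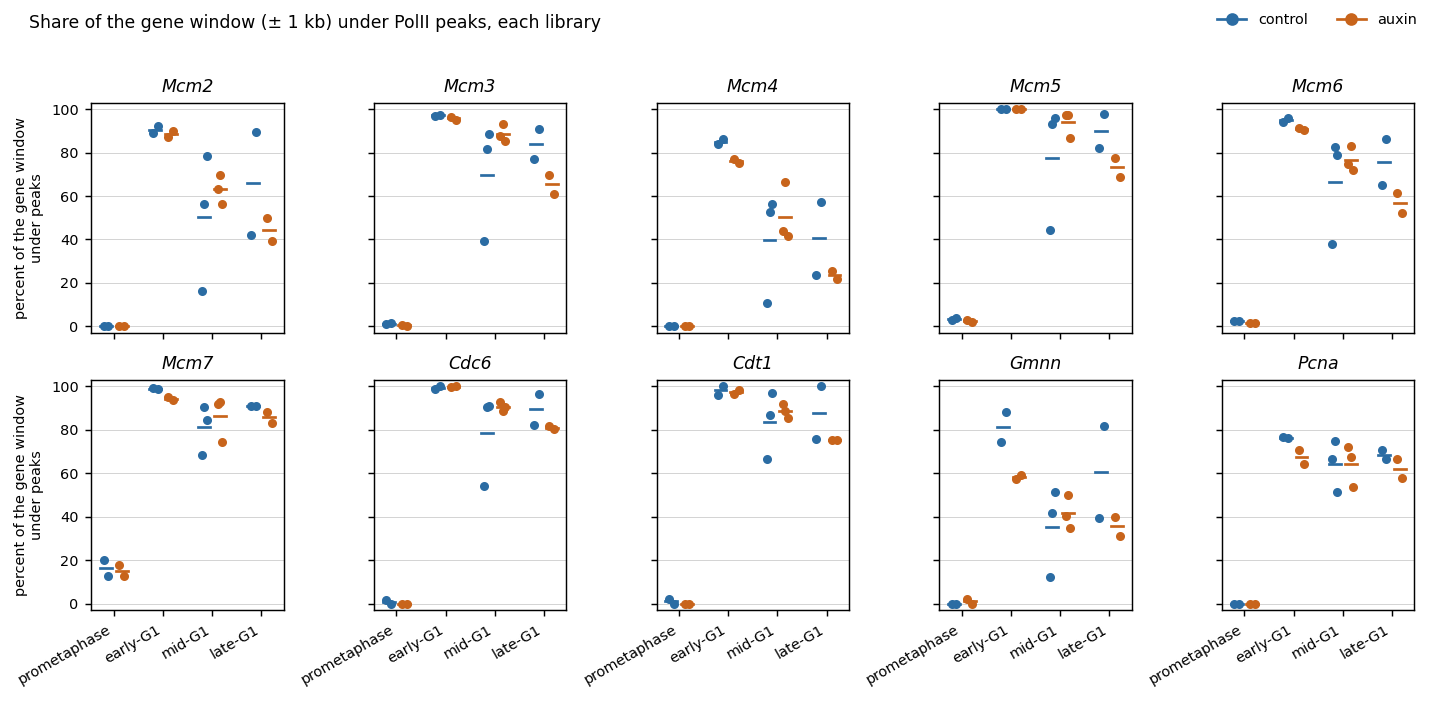
Percent of each gene window (gene plus and minus 1 kb) under PolII peaks in each library, from prometaphase to late-G1. Points are libraries, blue for control and orange for auxin, and lines are means. Prometaphase values are at or near 0 apart from Mcm7, early-G1 is highest in most panels, and the low mid-G1 control point in 9 of the panels is the shallowest library.

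The comparison of auxin with control asks whether loss of CTCF changed PolII over these genes as cells left mitosis. No change was called. Averaged over early-, mid- and late-G1, 0 of 10 genes passed adjusted p under 0.05 for best rank, and none had an unadjusted p under 0.05. The share of all genes called in either direction was 0.804%. Differences for auxin minus control ran from −0.57 ± 0.40 at Pcna to 0.05 ± 0.22 at Mcm5, with a median of −0.11 over the 10 genes and 0.01 over all genes, and their adjusted p from 0.642 to 0.998. The Pcna value was measured on the peak at the start of 5730494N06Rik. Cdt1 had −0.32 ± 0.20 and Mcm7 −0.30 ± 0.33, and the 6 remaining genes other than these, Pcna and Mcm5 lay between −0.12 and 0.01. These tests could miss changes of this size, since the standard errors ran from 0.19 to 0.40.

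Stage by stage 0 of 10 genes were called in early-G1, mid-G1 or late-G1, beside 0.0916, 0.214 and 0.254% of all genes. At an unadjusted p under 0.05 Mcm7 passed in mid-G1, where control ranks were 498, 887 and 1231 and auxin ranks 1739, 1360 and 2545 (−1.16 ± 0.49, adjusted p = 0.491). In 4 of these 6 libraries the best summit lay past the end of Mcm7. Read at its coding starts, Mcm7 ranked 2500, 1715 and 2004 in control and 1739, 1850 and 2545 in auxin, which overlapped. Pcna passed likewise in late-G1, where control ranks were 1156 and 175 and auxin ranks 1633 and 1647 (−1.87 ± 0.73, adjusted p = 0.493). Without late-G1 control 2 the Pcna difference was −3.23 (adjusted p = 0.0191), with the 1 control library left assumed to vary like the other groups. Read within 500 bp of the annotated Pcna coding starts the difference was 0.83 (adjusted p = 0.739). Over all 9829 genes, 577 were higher and 304 lower in auxin at an unadjusted p under 0.05 in mid-G1, and 371 and 490 in late-G1, so 1 of 10 is near the share of all genes. An F test of whether the auxin effect differed between the stages called 0 of 10 genes, beside 0.0203% of all genes.

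The fall in rank from early-G1 to late-G1 was also read within each condition. In control Mcm2, Mcm3, Mcm7 and Cdc6 were called, 4 of 10 beside 2.19% of all genes, and in auxin Mcm2, Mcm3 and Gmnn, 3 of 10 beside 2.44%. All 10 differences were below 0 in both. The difference between the conditions in this change was called for 0 of 10 genes, beside 0.0102% of all genes, with adjusted p of at least 0.996. For the covered share, auxin against control called 0 of 10 genes and 0% of all genes. No gene of the 10 had an unadjusted p under 0.05 there, and differences ran from −0.23 at Gmnn to 0.04 at Cdc6.

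Genes that work beside the licensing factors were read in the same way, in 5 lists with 56 genes, all 56 of them detected in all 14 post-mitotic libraries. From early-G1 to late-G1 19 were called weaker and 2 higher, beside 697 weaker and 615 higher among all 9829 genes. Between early-G1 and mid-G1 24 were called weaker, beside 8.15% of all genes. Of the 21 calls from early-G1 to late-G1, 11 were kept without each library in turn and 8 under every alternative tried. The 8 were Orc1, Orc6, Mcmbp, Pola2, Prim2, Pole, Rpa2 and Cul1. For these 56 genes summits and neighbours were not examined one by one, as they were for the licensing genes. A best rank in these lists can therefore be that of a peak at a neighbour. Apart from the alternatives on summit position, this was not tested.

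Of 9 genes of origin recognition and loading 5 were called weaker and 0 higher, with a median of −1.01. Orc1, the largest subunit of the origin recognition complex and the one that comes and goes with the cell cycle, ranked 510 to 1452 in early-G1 and 3552 to 7904 in late-G1 (−2.69 ± 0.36, adjusted p = 0.00033). The others were Orc2 (−0.99), Orc5 (−1.44), Orc6 (−1.89 ± 0.33, adjusted p = 0.00185) and Mcmbp (−1.43), whose product binds MCM proteins. The Orc2 call was lost without early-G1 control 1, early-G1 auxin 1 or 2, late-G1 control 2 or either late-G1 auxin library. The best median ranks over the 14 libraries in this list were those of Orc5, 482, and Orc3, 1602. Of 10 genes of origin firing and helicase activation 3 were called weaker and 0 higher, Cdc45 (−1.48), Gins2 (−1.01) and Gins4 (−1.39), all members of the active helicase, with a median of −0.70. The call of Gins4 was lost without early-G1 control 2 or early-G1 auxin 1, that of Gins2 without early-G1 control 1 or 2, early-G1 auxin 2, late-G1 control 2 or late-G1 auxin 1, and that of Cdc45 without early-G1 control 1 or 2, early-G1 auxin 1, late-G1 control 3 or either late-G1 auxin library. Topbp1 and Gins1 had the best median ranks, 499 and 1538.

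Of 23 genes of the fork and DNA synthesis 9 were called weaker and 1 higher, with a median of −1.0. Rpa2, a subunit of the single-strand binding protein, ranked 488 to 754 in early-G1 and 3536 to 7557 in late-G1 (−2.93 ± 0.43, adjusted p = 0.000669). Prim2, a primase subunit, changed by −2.54 ± 0.33 (adjusted p = 0.000266) and Pole, the catalytic subunit of polymerase epsilon, by −2.16 ± 0.28 (adjusted p = 0.000256). Pola2 (−1.85), Pold1 (−1.56), Pole2 (−1.67), Rfc2 (−1.78), Rfc3 (−1.60) and Clspn (−1.98) were also weaker. The call of Pold1 was lost without any 1 of the 8 early-G1 and late-G1 libraries. That of Pole2 was lost without any 1 early-G1 library or either late-G1 auxin library, and that of Rfc2 without any 1 early-G1 library, late-G1 control 2 or late-G1 auxin 1. The call of Rfc3 was lost without late-G1 auxin 1 (adjusted p = 0.0502). Pold2 was the exception, at ranks 4987 to 6673 in early-G1 and 1540 to 3565 in late-G1 (1.28 ± 0.33, adjusted p = 0.0178), a call lost without early-G1 control 2 (1.17), early-G1 auxin 1 (1.25), late-G1 control 3 (0.97) or late-G1 auxin 2 (1.07). The windows of Rfc4 and Timeless had the best median ranks, 61 and 1219, and whether those peaks belong to these genes was not tested. Rfc3, a subunit of the clamp loader, was the 1 gene of the 56 called for auxin, with stronger ranks in auxin (1.68, adjusted p = 0.00631), but with the summit of the peak required inside the gene, an alternative chosen after seeing the data, it was called with the opposite sign (−3.94).

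The 6 genes of nucleotide supply had 0 calls in either direction, with a median of −0.51, and Tyms and Rrm2 had the best median ranks, 1628 and 1725. Of 8 genes of the degradation of CDT1 and geminin 2 were called weaker and 1 higher, with a median of 0.11. Dtl, which brings CDT1 to its ligase on PCNA, ranked 381 to 816 in early-G1 and 1129 to 3784 in late-G1 (−2.12 ± 0.38, adjusted p = 0.00187), and Cul1 changed by −1.66. Ddb1 was stronger in late-G1, at ranks 613 to 1334 and then 296 to 432 (1.11 ± 0.27, adjusted p = 0.0139), a call lost without early-G1 control 2 (0.86) or early-G1 auxin 2 (1.04). Ddb1 and Fzr1 had the best median ranks of that list, 592.5 and 609.

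**Figure D5:**
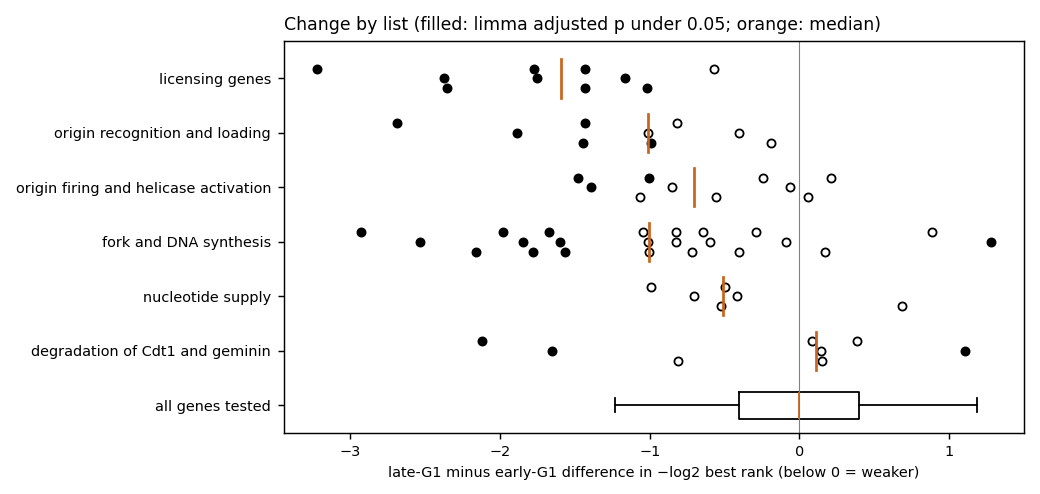
Late-G1 minus early-G1 difference in −log2 best rank (x axis, below 0 weaker) for the 10 licensing genes and the 5 lists. Each point is a gene, filled where limma's adjusted p was under 0.05, orange lines are medians, and the box shows quartiles of the 9829 genes tested with whiskers at the 5th and 95th percentiles. The licensing genes have the lowest median, −1.59, and the list for degradation of CDT1 and geminin has 0.11. The licensing genes include Pcna, measured on a peak at the start of the neighbour 5730494N06Rik, and Mcm7, measured mostly on peaks with summits past its end. For genes of the 5 lists, summits and neighbours were not examined one by one.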

How the data were processed

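PolII ChIP-seq peak lists of 18 libraries were analysed, and 4 input samples had no list here. The authors aligned reads to mm9 with Bowtie2 2.2.9, removed low-quality and duplicate reads with SAMtools 0.1.19 and blacklisted regions with bedtools 2.27.1, and called peaks per library with MACS2 2.1.0. The control for each call was an input sample of the same cell cycle stage. The deposited lists give each peak's fold enrichment, a ratio of pileup to local background. They also give, as deposited, −log10 p and −log10 q.

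Peaks overlapping a gene with 1 kb margins were taken for 22367 GENCODE vM1 protein-coding genes. Best rank (−log2) and covered share (log2) were fitted over 14 post-mitotic libraries and 9829 genes, those detected in all 14, with limma 3.58.1 in R 4.3.3 (6 group means) and called at Benjamini-Hochberg adjusted p under 0.05. Covered bases were compared by an exact permutation test (SciPy 1.17.1 and NumPy 2.4.6 under Python 3.11.15). Scripts were tested on simulated data. All 10 genes are named, and of the 5 lists the called genes and the 2 with the best median rank. The genes and lists were chosen with earlier results of these data known. Alternatives changed the rank scale, window, overlap rule, peak threshold, detection filter, depth term, replicate block and libraries used. Depth limits precision, and it was estimated from the lists because read totals were not used here.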

Additional observations from a re-analysis of the deposited data

How the results depend on the processing

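The 10 genes had more covered bases after mitosis in every alternative run. Of their 9 weaker calls from early-G1 to late-G1, 3 were kept with a normal score of the rank and 6 to 9 without 1 library, and Mcm4 was lost with the rank as a share of the list (−1.24), Mcm5 with centred log2 fold enrichment (−0.38) and Mcm6 with the summit in the gene (−2.02), an alternative chosen after seeing the data. The Pcna call was kept in 7 of 11 other settings. Among others it was lost at transcript starts (−0.35, limma adjusted p = 0.624) and with the summit required inside the window. From mid-G1 to late-G1 the count of calls was 0 with the rank as a share of the list, 0 with a normal score, and 1 to 2 without 1 library. From early-G1 to mid-G1 it was 5 to 7 without 1 library, 4 with a normal score (Mcm2 and Mcm5 lost), 5 with centred fold enrichment (Mcm5 lost), 4 of 8 tested with the summit in the gene (Gmnn lost), and 7 both at transcript starts (Cdt1 added) and without margins (Mcm4 added). For covered share from early-G1 to late-G1 it was 1 with the 50000 strongest peaks, 6 with depth as a covariate and 0 to 4 without 1 library. Late-G1 auxin calls were 0 to 1 without 1 library. Among all genes, calls for a weaker rank also moved without 1 library. They ran from 440 to 911 from early-G1 to mid-G1, 209 to 383 from mid-G1 to late-G1 and 421 to 788 from early-G1 to late-G1. Calls for a smaller covered share in late-G1 ran from 5 to 1402. Detected gene and library pairs after mitosis were 138 of 140 when read at transcript starts, where Mcm4 had no peak in mid-G1 control 3 and mid-G1 auxin 3. The cause was not tested for any of these.

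Averaged auxin differences that changed sign were small and not called, apart from Rfc3 (−3.94, summit in the gene). With depth as a covariate they were 0.0545 for Mcm2 and 0.0186 for Gmnn. Mcm6 gave −0.00868 as a share of the list, −0.00365 as a normal score, −0.015 in centred fold enrichment and −0.385 with the summit in the gene. At transcript starts Mcm7 gave 0.223 and Pcna 0.0226, and with the summit in the gene Mcm7 gave 0.223 and Gmnn 0.425. Without 1 library, differences ran from −0.239 to 0.0123 for Mcm2, −0.231 to 0.04 for Mcm3, −0.204 to 0.00121 for Mcm4, −0.0532 to 0.159 for Mcm5, −0.129 to 0.181 for Mcm6, −0.526 to 0.285 for Cdc6 and −0.199 to 0.0614 for Gmnn. The late-G1 Pcna difference was 0.832 at transcript starts, 0.145 with the summit in the window and 0.00192 with the summit in the gene.

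Same-numbered control and auxin libraries correlated at 0.0437 in early-G1, 0.0474, 0.124 and 0.276 in mid-G1 and 0.0184 in late-G1. Differently numbered libraries gave −0.0437 in early-G1, −0.240 to 0.150 in mid-G1 and −0.0184 or 0.0184 in late-G1. The highest mid-G1 value, 0.276, was that of the libraries numbered 3. The main fit did not pair libraries by number. With the replicate block, early-G1 to mid-G1 calls were 7, adding Pcna, 9 genes were called from early-G1 to late-G1, none for auxin, and the Gmnn auxin difference was 0.0492. Over all genes, early-G1 to late-G1 calls were 615 stronger and 697 weaker, 90 and 253 as a normal score, 776 and 610 in centred fold enrichment and 244 and 262 with the summit in the gene. For covered share 160 were larger and 184 smaller, and 422 and 2063 with depth as a covariate.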
